A study of Mus musculus with 6 samples.

Results

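Neutrophil and marrow granule genes were followed in condylar cartilage, the growth cartilage of the lower jaw joint, as 10 genes chosen by symbol from the 24346 genes of each table. The 10 were S100a8 and S100a9, the early granule genes Elane, Mpo, Prtn3 and Ctsg, and the late granule genes Ltf, Camp, Ngp and Lcn2, and every one had a row in all 6 libraries. RNA came from dissected cartilage of mice, with 3 control samples labelled fl/fl, which usually denotes unrecombined floxed alleles, and 3 samples labelled mutant, from a study of Ihh (Indian hedgehog) deletion restricted to the craniofacial neural crest, whose mutants carried Cre and a Tomato reporter. The sources used here do not give age, the Cre driver or whether each sample is another animal, so p-values cover spread among the samples, part of which may be technical. Ihh measured 3.73, 2.51 and 3.74 FPKM (fragments scaled to transcript length and library size) in controls 1, 2 and 3 against 2.18, 2.33 and 2.66 FPKM in mutants 1, 2 and 3 (limma adjusted p = 0.724), and the groups overlapped. Gli1, a transcription factor gene that hedgehog signalling switches on, fell from 9.47, 7.10 and 9.53 FPKM in controls to 0.807, 0.168 and 0.573 FPKM in mutants (log2 fold change -2.69 ± 0.32, limma adjusted p = 0.0152).

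Neutrophils are built in the bone marrow, and their granules are filled in the order in which their genes are switched on. Promyelocytes make the early, azurophilic granules, which hold myeloperoxidase and serine proteases. Myelocytes and metamyelocytes then make the late, specific granules, which hold lactoferrin and cathelicidin, while S100a8 and S100a9 accumulate in the cytosol until the cell leaves the marrow. Transcripts of early granule genes are largely gone from circulating neutrophils, so they are used as marks of immature marrow cells. Blood cells do not descend from the neural crest. Lcn2 is also made by chondrocytes and osteoblasts, and Ctsg is also known from mast cells.

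The promoters of members from each class are shown because the early and late genes held these motifs to different extents. RefSeq promoter windows (build GRCm38.p6, 250 bases before to 50 bases after the start) were found for all 10 genes. In each window 2 motifs were searched on both strands, TTNNGNAA for the C/EBP family and GAGGAA for PU.1, which are transcription factors of granulocyte development. The letters allow the 2 motifs to overlap, but no matches overlapped in the 10 windows. Elane lies at chr10:79886062-79886361 on the plus strand, Mpo at chr11:87793534-87793833 on the plus strand, Ngp at chr9:110419558-110419857 on the plus strand and S100a8 at chr3:90668821-90669120 on the plus strand, and capitals mark the motif matches in these windows, written 5′ to 3′.
Elane: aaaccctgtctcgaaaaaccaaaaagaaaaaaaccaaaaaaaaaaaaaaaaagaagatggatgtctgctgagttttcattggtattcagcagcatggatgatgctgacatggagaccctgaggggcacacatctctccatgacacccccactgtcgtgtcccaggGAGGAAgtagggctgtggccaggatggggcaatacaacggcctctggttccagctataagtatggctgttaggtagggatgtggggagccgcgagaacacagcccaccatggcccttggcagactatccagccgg
Mpo: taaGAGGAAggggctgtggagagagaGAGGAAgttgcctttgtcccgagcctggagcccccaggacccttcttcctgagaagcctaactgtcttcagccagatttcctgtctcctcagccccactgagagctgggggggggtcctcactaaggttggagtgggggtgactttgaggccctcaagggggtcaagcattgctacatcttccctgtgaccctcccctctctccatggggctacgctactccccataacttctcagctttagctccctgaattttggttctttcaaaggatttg
Ngp: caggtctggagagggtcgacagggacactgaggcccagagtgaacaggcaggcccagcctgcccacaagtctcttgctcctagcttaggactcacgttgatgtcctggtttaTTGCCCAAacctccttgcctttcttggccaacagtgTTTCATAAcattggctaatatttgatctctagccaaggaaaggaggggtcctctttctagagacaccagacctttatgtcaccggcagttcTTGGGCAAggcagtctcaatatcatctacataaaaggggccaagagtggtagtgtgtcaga
S100a8: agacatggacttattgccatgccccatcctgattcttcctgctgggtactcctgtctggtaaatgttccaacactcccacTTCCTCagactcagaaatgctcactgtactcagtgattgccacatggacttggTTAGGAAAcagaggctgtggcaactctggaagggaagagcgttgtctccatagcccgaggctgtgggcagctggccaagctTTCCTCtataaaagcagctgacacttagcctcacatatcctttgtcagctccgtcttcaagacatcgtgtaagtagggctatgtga

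GAGGAA was present in the windows of all 4 early granule genes, and TTNNGNAA in none of them. Of the 4 late genes alone, 3 held TTNNGNAA and 2 held GAGGAA. Of the 6 late and S100 genes, 5 held TTNNGNAA and 3 held GAGGAA, and the window of Camp held neither. Over all 10 members, 5 held TTNNGNAA and 7 held GAGGAA. Among 32851 promoters of 300 bases, 40.7% held TTNNGNAA and 28.3% held GAGGAA. Counted from the annotated start to the first base of the match, GAGGAA lay at -85 in Elane and at -247 and -224 in Mpo, and TTNNGNAA lay at -138, -102 and -11 in Ngp. These matches describe exact letters and were not tested against binding. Near matches were not searched, so a window without a match may still hold a similar site. The contrast of early and late genes rests on 4 genes each.

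**Figure D1:**
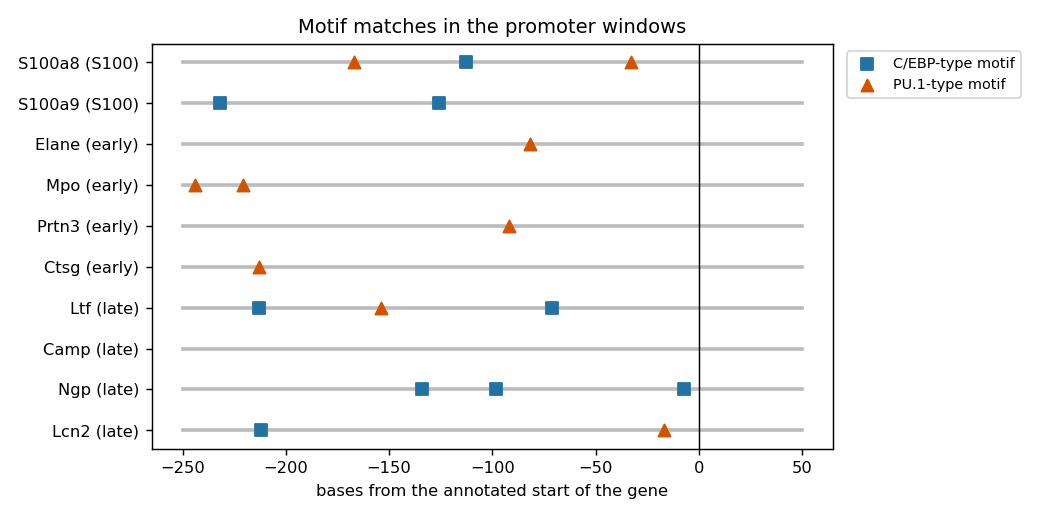
Positions of the C/EBP-type (squares) and PU.1-type (triangles) motif matches in the promoter windows of the 10 genes, in bases from the annotated start, with each window as a grey line from 250 bases before to 50 bases after it. The 4 early genes carry only triangles, and 5 of the 6 late and S100 genes carry at least 1 square.

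The genes lie in several places of the genome (mm10 coordinates, GENCODE release M21). Prtn3 (chromosome 10, 79874476 to 79883174) and Elane (chromosome 10, 79886247 to 79888215) are neighbours with 3072 bases between them and no protein-coding gene in the gap. S100a8 (chromosome 3, 90668978 to 90670035) and S100a9 (chromosome 3, 90692632 to 90695721) are 22596 bases apart and point in opposite directions. Camp, Ngp and Ltf lie on chromosome 9, with 8 protein-coding genes between Camp and Ngp and 20 between Ngp and Ltf. Mpo (chromosome 11), Ctsg (chromosome 14) and Lcn2 (chromosome 2) lie alone. Exons of Prtn3 overlap Plppr3 on the opposite strand, and exons of Mpo overlap Gm11505, and libraries of this kind do not keep the strand. Plppr3, listed under its older symbol Lppr3, measured 6.91, 11.7 and 6.10 FPKM in controls against 3.43, 8.95 and 2.37 FPKM in mutants.

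Several features of the libraries touch the results. The cartilage list, with genes such as Col2a1 and Hapln1, was expressed in every library (sums of 425 to 554 FPKM in controls, 236 to 374 FPKM in mutants) and 5 of its 13 tested genes fell. Mutants 1 and 2 stood apart from mutant 3, which resembled the controls in most of the 10 genes, so results are given with and without mutants 2 and 3. The X-inactivation transcript Xist was at 29.5 and 29.2 FPKM in controls 1 and 2 and below 1 FPKM in the other libraries, while the Y-linked Eif2s3y was at 42.1 FPKM in control 3 and at 38.4 to 47.4 FPKM in mutants, so sex cannot be told apart from group except in control 3. Absolute library depth is unknown, and from their spacing the totals were 0.993 to 1.33 times that of control 1. Of 1120 olfactory receptor genes, which are taken to be silent here, the 90th percentile was 6.49 to 8.69 FPKM, and lower values are within the range of silent genes. Above that percentile were 3, 2 and 2 of the 10 genes in controls 1, 2 and 3 against 5, 9 and 2 in mutants 1, 2 and 3.

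All 10 genes had their highest value in mutant 2, whereas mutant 2 held the highest value of 18% of all 18715 genes tested. In 8 of the 10 the next highest value was in mutant 1. Mutant 3 lay within or below the control range for 8 of the 10, so the groups overlapped for those. The mean of log2(FPKM + 1) over the 10 genes was 2.59, 1.44 and 1.75 in controls 1, 2 and 3 against 3.54, 4.96 and 1.66 in mutants 1, 2 and 3. Over the 45 pairs of members, Pearson's r of log2(FPKM + 1) across the 6 libraries ran from 0.386 to 0.958 with a median of 0.768, as a description of points that share the same libraries. In bulk tissue, fewer cells of a type and less RNA per cell cannot be told apart.

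**Figure D2:**
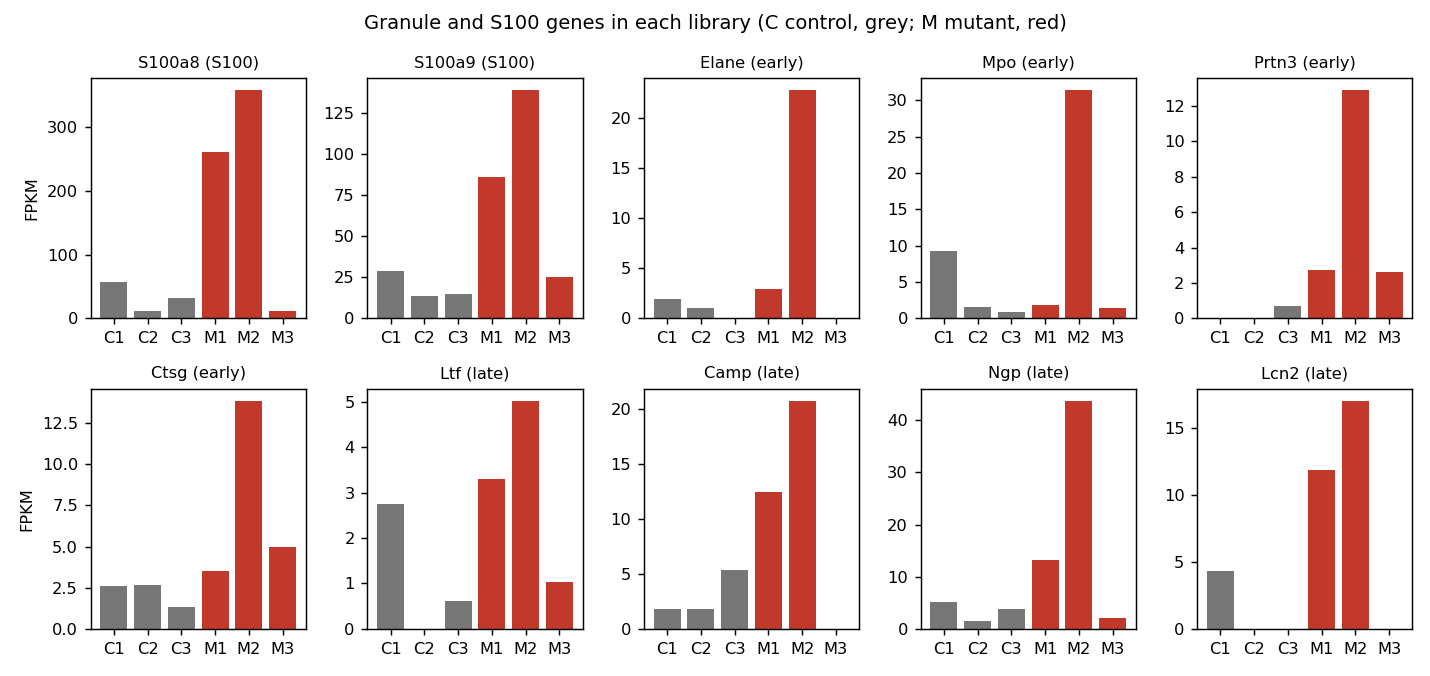
FPKM of each of the 10 genes in controls 1 to 3 (C1 to C3, grey) and mutants 1 to 3 (M1 to M3, red), 1 bar per library, each panel with its own scale starting at 0. Every gene peaks in mutant 2, and mutant 3 stays low for most genes.

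S100a8 and S100a9 encode the subunits of calprotectin, the main calcium-binding protein of the neutrophil cytosol, and were the most abundant of the 10 per length. S100a8 measured 56.7, 11.4 and 31.2 FPKM in controls 1, 2 and 3 against 261, 359 and 10.8 FPKM in mutants 1, 2 and 3. S100a9 measured 28.9, 13.4 and 15.0 FPKM in controls against 86.3, 139 and 25.3 FPKM in mutants. For both genes mutants 1 and 2 lay above every control and mutant 3 lay among the controls or, for S100a8, just below them. As the smallest whole numbers that fit all 6 values, S100a8 rested on 15, 3 and 11 fragments in controls against 69, 114 and 3 in mutants. S100a9 had no such solution up to 150 fragments. The ratio of S100a8 to S100a9 in FPKM was 1.96, 0.851 and 2.08 in controls against 3.03, 2.57 and 0.425 in mutants, highest where both genes were high. S100a8 differed by 1.86 ± 1.61 (log2 fold change of FPKM + 1, mutant minus control, ± SE; limma adjusted p = 0.734) and S100a9 by 1.85 ± 0.56 (adjusted p = 0.167), so neither passed.

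The early granule genes were near the level of silent genes in most libraries and stood out in mutant 2. Elane, which encodes neutrophil elastase, measured 1.95, 0.984 and 0 FPKM in controls against 2.94, 22.8 and 0 FPKM in mutants. Its values corresponded to 2, 1 and 0 fragments in controls against 3, 28 and 0 in mutants, and a count of 0 allows up to 3 fragments, or 2.2 FPKM in control 3 and 2.78 FPKM in mutant 3. Mutant 2 thus held 28 of the 34 Elane fragments (82.4%). Mpo, which encodes the peroxidase that makes hypochlorous acid, measured 9.22, 1.498 and 0.894 FPKM in controls against 1.79, 31.5 and 1.41 FPKM in mutants. Control 1 was second to mutant 2 for Mpo, with 31 fragments against 127, and the other 4 libraries held 4 to 6 each. The 2 genes did not pass, with log2 fold changes of 1.33 ± 0.99 for Elane (limma adjusted p = 0.650) and 0.72 ± 1.06 for Mpo (adjusted p = 0.842).

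Prtn3 and Ctsg were the members whose groups did not overlap, 2 of 10, where 9.77% of all genes tested were higher in every mutant than in every control. Prtn3, the gene of proteinase 3, measured 0, 0 and 0.686 FPKM in controls against 2.74, 12.9 and 2.60 FPKM in mutants. This rested on 0, 0 and 1 fragments in controls against 3, 17 and 3 in mutants, and Prtn3 reached the filter of 1 FPKM in 3 libraries only through the mutants. A count of 0 allows up to 2.74 FPKM in control 1 and 2.76 FPKM in control 2, which covers the values of mutants 1 and 3. Ctsg, the gene of cathepsin G, measured 2.63, 2.65 and 1.32 FPKM in controls against 3.51, 13.9 and 4.99 FPKM in mutants, from 3, 3 and 2 fragments and from 4, 19 and 6 fragments. The margin between the groups was thus 1 fragment for Ctsg in mutant 1 against controls 1 and 2. The log2 fold change was 2.27 ± 0.56 for Prtn3 (limma adjusted p = 0.0949) and 1.24 ± 0.46 for Ctsg (adjusted p = 0.256).

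The late granule genes were higher in mutants 1 and 2 than in every control, and mutant 3 was within or below the control range. Ngp, the neutrophilic granule protein of the mouse, measured 5.11, 1.47 and 3.84 FPKM in controls against 13.2, 43.8 and 2.08 FPKM in mutants. Camp, which encodes the antimicrobial cathelicidin, measured 1.78, 1.79 and 5.35 FPKM in controls against 12.5, 20.7 and 0 FPKM in mutants. Both therefore split the mutants, with mutants 1 and 2 above all controls and mutant 3 among or below them. Lcn2, which binds the bacterial iron carrier enterobactin, measured 4.32, 0 and 0 FPKM in controls against 11.9, 17.1 and 0 FPKM in mutants. Camp rested on 1, 1 and 4 fragments in controls against 7, 14 and 0 in mutants. Lcn2 rested on 4, 0 and 0 fragments in controls against 11, 19 and 0 in mutants. In every control, Ngp, Camp and Lcn2 were under the 90th percentile of the silent genes. Ltf, the iron-binding lactoferrin, was the lowest of the late genes, at 2.75, 0 and 0.619 FPKM in controls against 3.30, 5.03 and 1.04 FPKM in mutants, under that percentile in every library. Ltf rested on 10, 0 and 3 fragments in controls against 12, 22 and 4 in mutants, so control 1 and mutant 1 differed by 2 fragments. The log2 fold changes were 1.58 ± 0.87 for Ngp, 0.86 ± 1.07 for Camp, 1.82 ± 1.13 for Lcn2 and 1.04 ± 0.58 for Ltf (limma adjusted p = 0.502, 0.811, 0.571 and 0.495).

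Mutant and control libraries were compared to ask whether these genes differ after deletion of Ihh in the neural crest. All 10 genes were tested and 0 were called at a limma adjusted p below 0.05, where 1.24% of 18715 genes were called, 0.775% as higher and 0.465% as lower in mutants. At an unadjusted p below 0.05 there were 3, S100a9, Prtn3 and Ctsg, where 14.1% of all genes tested reached that level. The median log2 fold change was 1.46 over the 10 genes and 0.00 over all genes tested, and it became 0.72 without mutant 2 and 2.48 without mutant 3. Without mutant 3, 3 genes were called where 2.21% of all genes were, 1.68% as higher in mutants. They were S100a8 (log2 fold change 3.43, limma adjusted p = 0.0368), S100a9 (2.54, adjusted p = 0.0133) and Camp (2.22, adjusted p = 0.0452). Mutant 3 was singled out because it was low in most of these same genes, so these calls are no independent support for a difference. No other alternative called a member. Without mutant 2, 0 were called, Mpo had a log2 fold change of -0.49 and Camp one of 0.00. Without controls 1 and 2, which express Xist, the median was 1.68 and 0 were called, where the spread of the lone control is taken to equal that of the mutants.

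**Figure D3:**
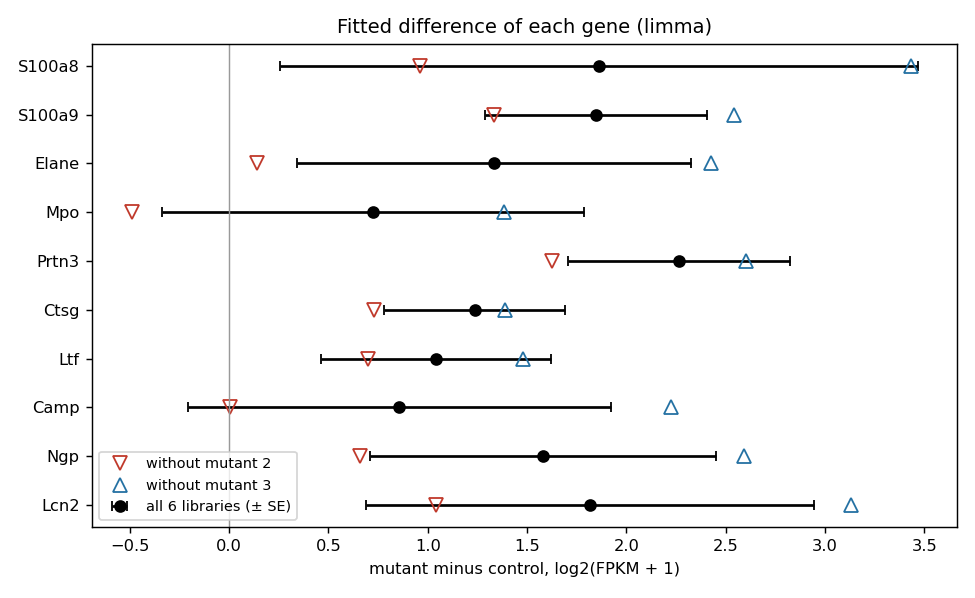
Fitted log2 fold change of each gene on the scale of log2(FPKM + 1), mutant minus control, with all 6 libraries (black, ± SE), without mutant 2 (red) and without mutant 3 (blue). All black points lie above 0, leaving out mutant 2 moves every gene left and leaving out mutant 3 moves every gene right.

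Mutants 1 and 2 were set side by side for early and late granule genes, as 1 library against 1 library and with no test between the classes. From mutant 1 to mutant 2, the fold was 17.6 for Mpo (exact 95% interval 7.86 to 48.8), 7.76 for Elane (2.40 to 39.9), 4.71 for Prtn3 (1.36 to 25.1) and 3.95 for Ctsg (1.31 to 16.0). For the late genes the fold was 3.32 for Ngp (1.96 to 5.92), 1.66 for Camp (0.628 to 4.87), 1.52 for Ltf (0.722 to 3.38) and 1.44 for Lcn2 (0.649 to 3.34), and for S100a8 it was 1.37 (1.009 to 1.88). The interval of Mpo lay above those of all 4 late genes, while in the other 12 of 16 early and late pairs the intervals overlapped, as for Ctsg and Ngp. The intervals come from fragment numbers, cover counting error only and compare 2 libraries, not the genotypes.

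Early genes supplied 62.1% of the early and late fragments in control 1 (36 of 58, exact 95% interval 48.4% to 74.5%), 75.0% in control 2 (9 of 12) and 33.3% in control 3 (7 of 21). In mutants 1, 2 and 3 the shares were 25% (16 of 64, 15.0% to 37.4%), 60.1% (191 of 318, 54.5% to 65.5%) and 66.7% (14 of 21, 43.0% to 85.4%). Mutant 1 had the lowest share with Mpo included, and its interval met that of control 3 alone. These shares rested on Mpo, which gave 31 of the 36 early fragments in control 1 and 127 of 191 in mutant 2. Without Mpo, a choice made after seeing the data, the shares were 18.5% in control 1 (5 of 27), 57.1% in control 2 (4 of 7) and 17.6% in control 3 (3 of 17), and 17.2% in mutant 1 (10 of 58, 8.59% to 29.4%), 33.5% in mutant 2 (64 of 191, 26.9% to 40.7%) and 56.2% in mutant 3 (9 of 16, 29.9% to 80.2%). Control 1 and mutant 1 were then alike in share, and the intervals of mutants 1 and 2 overlapped. On the log scale, the mean of the early genes minus that of the late genes was -0.25 ± 0.54 in controls and -0.18 ± 1.15 in mutants (SD, n = 3 each). The mutant minus control difference of 0.07 was smaller than either SD, and ran from -0.41 without mutant 3 to 0.70 without mutant 1. The genotypes were thus not separated by the balance of early and late genes at this depth.

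**Figure D4:**
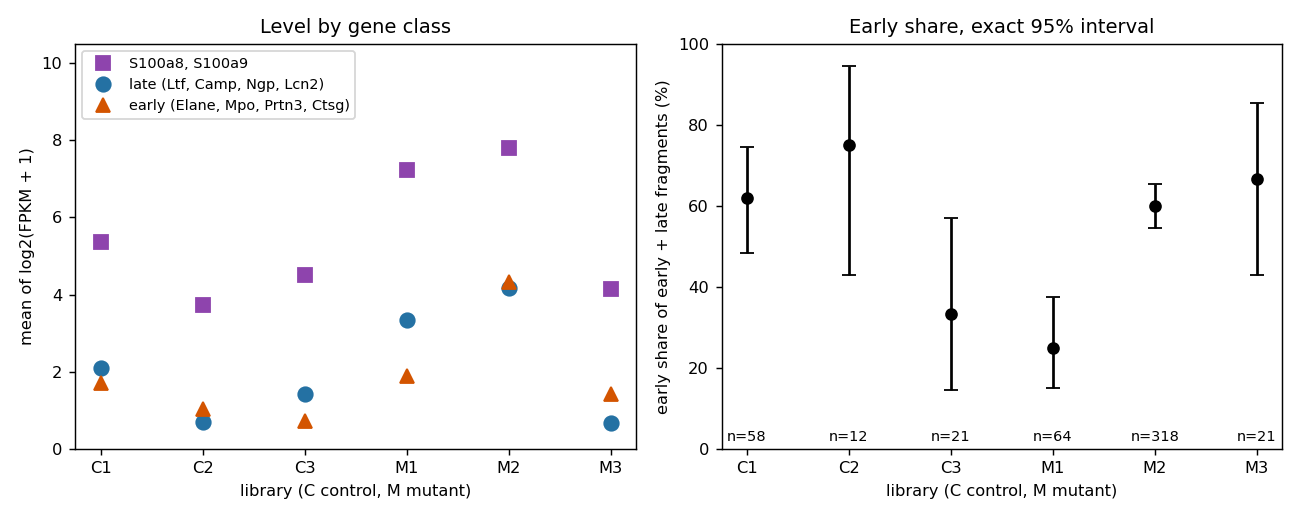
Left, mean of log2(FPKM + 1) over the S100 (squares), late (circles) and early (triangles) genes in each library, and right, share of early genes among early and late fragments in percent, with exact 95% intervals and the number of fragments (n). All 4 early genes are included, and mutant 1 has the lowest early share, 25%, against 60.1% in mutant 2. Without Mpo, which is not drawn, these shares are 17.2% in mutant 1 and 33.5% in mutant 2.

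Other genes of granulocytes were read from lists. Of 13 tested genes of granulocyte progenitors, 0 were called (3 at an unadjusted p below 0.05, median log2 fold change 0.08). Of the 19 genes measured, 6 were highest in mutant 2. Ms4a3, a membrane gene of granulocyte and monocyte progenitors named after its values were seen, was 1 of them. It measured 0.869, 0 and 0 FPKM in controls against 1.74, 6.51 and 0 FPKM in mutants. Its peak was under the 90th percentile of the silent genes in mutant 2, 7.045 FPKM. Prss57 and Fcnb, also named after their values were seen, did not share that pattern. Prss57 measured 9.52, 11.8 and 10.1 FPKM in controls against 10.4, 10.7 and 11.7 FPKM in mutants. Fcnb was highest in control 1, at 8.96 FPKM against 7.46 FPKM in mutant 2. Calr, a chaperone of the endoplasmic reticulum, had the smallest p of that list and was lower in every mutant (204, 213 and 280 FPKM in controls, 149, 133 and 121 FPKM in mutants, limma adjusted p = 0.0935). Cd34 and Kit, which many other cells also express, had the next smallest p, with adjusted p = 0.165 and 0.185.

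Of 25 tested other late granule genes, 0 were called (5 at an unadjusted p below 0.05, median log2 fold change 0.68). The stefin A genes, which encode cathepsin inhibitors of myeloid cells, were named after their values were seen and did not share 1 pattern. Stfa1 measured 0, 0 and 7.47 FPKM in controls against 56.4, 41.4 and 0 FPKM in mutants. BC100530, another gene of that cluster, measured 11.9, 6.01 and 6.73 FPKM in controls against 50.9, 37.3 and 2.83 FPKM in mutants. Both were thus high in mutants 1 and 2 and at their lowest or listed at 0 in mutant 3. Stfa2 differed, at 0, 16.3 and 0 FPKM in controls against 9.73, 16.2 and 0 FPKM in mutants, with control 2 and mutant 2 nearly equal. Stfa3 and Stfa2l1 were highest in mutant 2, at 22.7 and 14.1 FPKM. These genes are near-identical copies among which the counting could split fragments, so single values are uncertain. Smallest in p were Dgat2, an enzyme of triglyceride synthesis, at 4.43, 2.40 and 6.14 FPKM in controls against 15.0, 30.0 and 11.95 FPKM in mutants (limma adjusted p = 0.0587), then Ifitm6, Lrg1 and Lyz2 (adjusted p = 0.192 to 0.232). Lyz2, the lysozyme of myeloid cells, measured 57.4, 28.9 and 63.4 FPKM in controls against 82.1, 131 and 71.5 FPKM in mutants.

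Of 30 tested mature neutrophil genes, 0 were called (5 at an unadjusted p below 0.05, median log2 fold change 0.13). Of the 33 measured, 15 were highest in mutant 2, where their sum was also highest (1033 FPKM, against 866 to 987 FPKM in controls). The chemokine receptor gene Cxcr2, named after its values were seen, measured 90.1, 90.9 and 68.8 FPKM in controls against 83.1, 60.7 and 80.1 FPKM in mutants. Csf3r, the receptor of granulocyte colony-stimulating factor and also named after its values were seen, measured 24.9, 20.96 and 20.6 FPKM in controls against 23.1, 13.9 and 21.7 FPKM in mutants. Both receptors were at their lowest in mutant 2, unlike the list as a whole. Tyrobp, an adaptor of activating receptors on all myeloid cells, measured 62.2, 41.1 and 42.3 FPKM in controls against 101.3, 165 and 79.3 FPKM in mutants (limma adjusted p = 0.0922), and Fcgr3, an antibody receptor, 7.29, 3.06 and 2.74 against 11.6, 13.7 and 11.5 FPKM (adjusted p = 0.0836). Msrb1 and G0s2 followed in p (adjusted p = 0.145 and 0.147). Of the NADPH oxidase genes 0 of 6 tested were called, 0 of them at an unadjusted p below 0.05, with Ncf1 the smallest in p (adjusted p = 0.419) and then Cybb and Rac2 (0.587 and 0.824).

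Among ligands and adhesion genes that draw or hold neutrophils, 0 of 14 tested were called (2 at an unadjusted p below 0.05, median log2 fold change 0.10). Cxcl12, the stromal chemokine that retains neutrophils in the marrow, measured 29.7, 25.5 and 36.4 FPKM in controls against 64.9, 89.9 and 47.6 FPKM in mutants (limma adjusted p = 0.0843). Icam1, an endothelial ligand of leukocyte integrins, measured 2.69, 1.502 and 3.81 FPKM in controls against 9.57, 6.46 and 6.51 FPKM in mutants (adjusted p = 0.112). The chemokines Cxcl1 and Cxcl3 had log2 fold changes of -0.47 and -0.76 (adjusted p = 0.555 and 0.649). Of 15 tested receptors and inhibitors of granule proteins, 1 rose and 0 fell (4 at an unadjusted p below 0.05, median 0.29). The gene that rose was Cd36, a fatty acid receptor of endothelium, muscle and fat that also binds calprotectin, at 17.9, 10.8 and 22.0 FPKM in controls against 104, 175 and 59.5 FPKM in mutants. Its log2 fold change was 2.59 ± 0.39 (limma adjusted p = 0.0250), and the call was lost without control 1 (adjusted p = 0.0870), control 2 (0.0802), mutant 1 (0.101) or mutant 2 (0.0562), in a range from 0.00828 to 0.835 over all alternatives. The endothelial and skeletal muscle lists, given next, were higher in the same libraries. Over the 99 tested genes of these lists that are not members, 1 was called and the median log2 fold change was 0.18. Without mutant 3 there were 5, Cd36, BC100530, Dgat2, Tyrobp and Cxcl12, where 2.21% of all genes tested were called. Mutant 3 was singled out for its low values in the 10 members, so these calls are no independent support either.

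Some marker lists of other cells were high in the same libraries as the 10 genes, and others were not. Skeletal muscle genes summed to 5273 to 13013 FPKM in controls against 21098 to 38314 FPKM in mutants, highest in mutant 2 and then mutant 1, with 10 of 25 tested called higher. With the mean of that list as a covariate, the median log2 fold change of the 10 genes was -1.25 and 0 were called. That mean was 6.34, 5.58 and 6.63 in controls against 7.82, 7.99 and 7.21 in mutants, on the scale of log2(FPKM + 1). Muscle level and group thus cannot be told apart, so this fit cannot decide the part of muscle, which was not tested. Endothelial genes summed to 169 to 261 FPKM in controls against 427 to 499 FPKM in mutants, with 3 of 16 called higher. Osteoclast genes, whose cells share a marrow origin, summed to 830, 1440 and 447 FPKM in controls against 1523, 2244 and 527 FPKM in mutants, with 0 of 12 called (2 at an unadjusted p below 0.05), and were highest among controls in control 2, where the members were lowest on the log scale. Macrophage and monocyte genes summed to 127 to 168 FPKM in controls and to 148, 245 and 109 FPKM in mutants 1, 2 and 3, with 0 of 17 called (2 at an unadjusted p below 0.05). Mast cell, basophil and eosinophil genes summed to 48.0 to 72.0 and 50.1 to 75.4 FPKM, with control 3 at 72.0 above mutant 2 at 59.8 FPKM and 0 of 12 called (2 at an unadjusted p below 0.05). Of the 16 measured, 5 were highest in mutant 2. The eosinophil granule genes Prg2 and Prg3, named after their values were seen, were listed at 0 in every library except mutant 2. There they measured 2.76 and 0.782 FPKM, under the 90th percentile of the silent genes (7.045 FPKM). Ear2, also named after its values were seen, was highest in control 2 (9.65 FPKM) and listed at 0 in mutant 3. Ear1 was highest in mutant 1 (17.9 FPKM) and Ear6 in mutant 3 (18.6 FPKM).

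Erythroid genes, the other large class of marrow cells, were close to the members when averaged on the log scale. The mean of log2(FPKM + 1) over 21 genes was 4.96, 3.49 and 3.92 in controls against 5.28, 6.01 and 4.43 in mutants. On that scale mutants 2 and 1 were thus highest and control 1 came next, as for the 10 members. The sum of the list ranked the libraries differently and was highest in control 3. It was 4742, 1398 and 7344 FPKM in controls 1, 2 and 3 against 4061, 6254 and 2199 FPKM in mutants 1, 2 and 3. Car1, a carbonic anhydrase of red cells, was the 1 gene called among 21 tested (7 at an unadjusted p below 0.05), at 7.13, 0.718 and 1.07 FPKM in controls against 38.8, 37.5 and 12.7 FPKM in mutants (log2 fold change 3.17 ± 0.62, limma adjusted p = 0.0496). That call was lost without any of the libraries other than mutant 3, with adjusted p from 0.0513 to 0.169. The alpha-globin copies went opposite ways, with Hba-a2 at 1987, 408 and 3318 FPKM in controls against 1211, 1010 and 190 FPKM in mutants, and Hba-a1, named after its values were seen, at 51.9, 186 and 3.92 FPKM in controls against 406, 1721 and 788 FPKM in mutants. The copies are near-identical, so fragments could be split between them and neither value is certain. Megakaryocyte, B-lymphoid, T and NK cell, and marrow stromal lists had 0 genes called among 9, 15, 6 and 10 tested (1, 1, 1 and 2 at an unadjusted p below 0.05), with medians of 0.23, 0.10, -0.07 and 0.34.

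**Figure D5:**
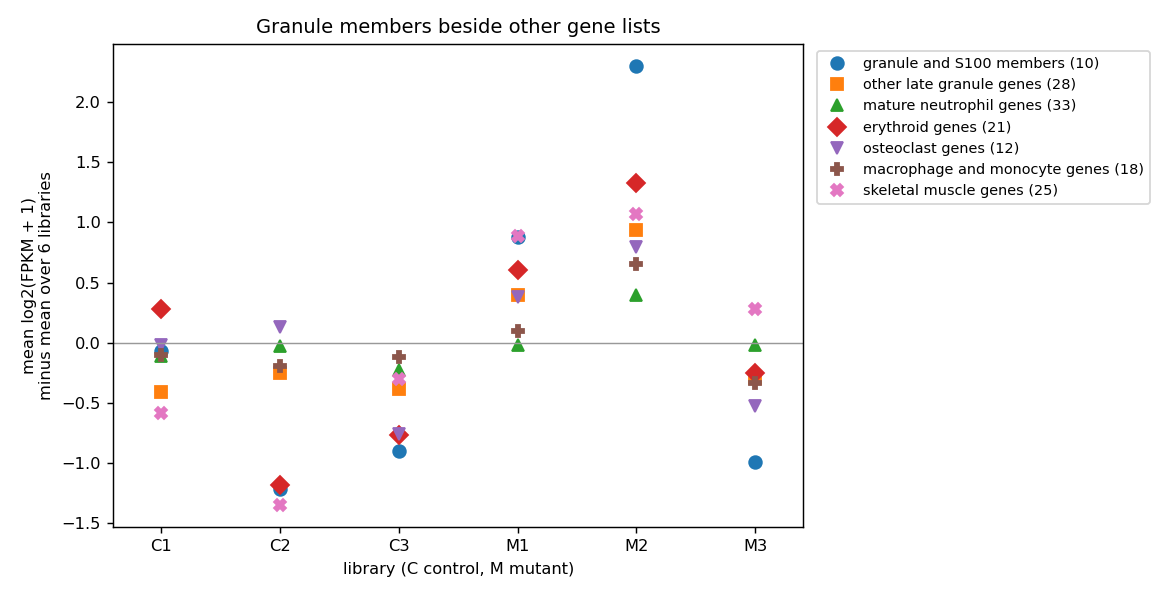
Mean of log2(FPKM + 1) over each gene list in each library, minus that list's mean over the 6 libraries, with the number of genes in brackets. The 10 members span the widest range, and every list shown is highest in mutant 2.

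Likeness to the 10 genes was measured as Pearson's r across the 6 libraries between log2(FPKM + 1) of a gene and the mean of the members, each standardised over libraries, among 11397 other genes with a mean of at least 5 FPKM. The 8 most alike were Ecsit, Unc119, Sh3bp5l, Isca1, Twf2, Glipr1, Ankrd23 and Cul3, with r from 0.972 to 0.992, and none of them was on a list used here. Ecsit, for example, measured 27.7, 24.1 and 25.3 FPKM in controls against 35.9, 48.3 and 26.2 FPKM in mutants. Their spans were narrow beside those of the members, and over 6 libraries a choice from so many genes yields high values of r.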

How the data were processed

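Condylar cartilage gave 3 control and 3 mutant libraries, grouped by their titles. Total RNA was turned into full-length cDNA and libraries by kits that do not keep strand, per the labels' protocols. The deposited values, 1 table per library, are FPKM made by the authors, an inference from their form and from Cufflinks 2.2.1 in the submitters' processing notes, which also list TopHat2 2.0.13, Bowtie2 2.2.3, SAMtools 0.1.19 and the build mm10. Neither the gene annotation nor any further scaling is named in the sources used here.

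The 18715 genes that reached 1 FPKM in 3 or more libraries entered limma 3.58.1 (R 4.3.3), on the scale of log2(FPKM + 1) (trend, robust moderation, group as the only term), with Benjamini-Hochberg adjustment over all of them and a threshold of 0.05. This scale understates the changes of low genes. The fit was checked on simulated data. Means are given with the standard deviation or the standard error, as named.

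Numbers of fragments were recovered as the smallest whole numbers that fit a gene's 6 values, given a relative total for each library, with a tolerance of 0.1 fragment and up to 150 in the highest library. They could be multiples of these, and PCR copies are not independent molecules, so exact (Clopper-Pearson) 95% intervals cover counting error only. Absolute depth is unknown.

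The members, the gene lists, the motifs and the alternatives were chosen with earlier results of these data known. Named genes were the members, the called genes of each granulocyte list or else the up to 4 with the smallest p, examples of the other lists, and the 8 genes most like the members. Some genes taken by the rule are left unprinted, and the remaining names are said to be chosen after their values were seen. Sequences came from RefSeq. Alternatives covered scaling, filter, pseudocount, moderation, library weights, a replicate block, covariates and leaving out libraries, with the tested genes held fixed in the last.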

Additional observations from a re-analysis of the deposited data

How the results depend on the processing

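The count of 0 members called held in every alternative tried except leaving out mutant 3, and ran from 0 to 3 when 1 library was left out at a time. The direction of the 10 fold changes was kept in all alternatives but 2. With the skeletal muscle covariate 8 reversed, namely S100a8 (-3.27), S100a9 (-0.18), Elane (-0.93), Mpo (-1.50), Ltf (-0.996), Camp (-3.15), Ngp (-1.95) and Lcn2 (-1.80), and without mutant 2 Mpo reversed (-0.49, in a range of -0.49 to 1.47 with 1 library left out). The cause was not tested. The mean of the muscle list was higher in every mutant than in every control, so the covariate cannot be told apart from group. Only 4 members passed a filter of 5 FPKM. The count of all genes called, 232, became 411 with quantile normalization, 133 without a filter, 440 with the filter of 5 FPKM, 3 with the muscle covariate, 2 with the Xist covariate and 5 without the controls that express Xist, and ran from 13 to 414 with 1 library left out (leaving out control 1 gave 13, control 2 gave 20, mutant 1 gave 19, mutant 2 gave 57 and mutant 3 gave 414). The count of 1 among the granulocyte list genes became 5 with quantile normalization, 4 with the filter of 5 FPKM, 2 with array weights, 0 with either covariate and 0 without the controls that express Xist, and ran from 0 to 5 with 1 library left out. With 1 library left out, the early minus late difference ran from -0.41 to 0.70 (0.29 without Mpo, added after seeing the data) and the mean difference over the members from 0.67 to 2.32.

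No pairing of the samples by replicate number was seen. The deviations of same-numbered libraries correlated at 0.00628, -0.0162 and -0.00909, against -0.00888 to 0.0175 for differently numbered ones. As all values were near 0, the check cannot tell whether the samples were collected in pairs. With the replicate number as a block, 2 genes were called in all, 0 members and 0 of the granulocyte list genes.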
